A study of Homo sapiens with 6 samples.

Results

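The genes described here are 39 members of the TGF-beta and BMP pathways: ligands, receptors, SMADs, antagonists and target genes, matched by symbol to the Ensembl identifiers of the deposited table, which holds 20014 genes. All 39 were found, and 33 had a mean of at least 1 FPKM (fragments per unit of transcript length and per unit of library size) over the libraries. The study compared HaCaT cells, an immortalized human keratinocyte line, after CRISPR knockout of STUB1 (3 libraries, called KO) with cells labelled WT that, per the growth protocol, carried a control guide (3 libraries, called control). Both groups were untreated otherwise, had been transduced with a lentiviral vector for Cas9 and the guide, and were grown as colonies from sorted cells and checked by immunoblot for STUB1 protein. The labels do not say whether a group's libraries came from 1 clone or several, nor whether they came from separate cultures, so every p-value rests on the scatter among these 6 libraries, part or all of which may be technical. In bulk RNA a lower level can mean fewer cells of a kind or less RNA per cell, and these cannot be told apart.

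TGF-beta and activins bind pairs of type II and type I receptor kinases that phosphorylate SMAD2 and SMAD3, while BMPs act through other type I receptors on SMAD1 and SMAD5. Both sets of SMADs join SMAD4 and act in the nucleus, and both pathways induce their own inhibitors, among them SMAD6, SMAD7, SKIL and PMEPA1. In epidermis TGF-beta restrains keratinocyte division and raises matrix genes. STUB1 (CHIP), the ubiquitin ligase disrupted here, has been reported in other cells to mark SMAD proteins for degradation, which acts on protein and is not read by RNA levels.

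Control 3 stood apart from the other libraries. Its correlation with controls 1 and 2 on the log2 scale was 0.988 and 0.986, against 0.996 to 0.999 among KO libraries and 0.998 between controls 1 and 2. Its deviation from the mean of all libraries fell by 0.10 on the log2 scale per doubling of transcript length, against -0.01 to 0.03 in the other 5. Calls that change without control 3 are therefore given both ways. STUB1 mRNA was lower in every KO library (21.6 to 24.7 FPKM) than in any control library (37.8 to 52.7 FPKM), at 52.5% of the control mean, which fits the labels. Keratinocyte markers summed to 604.7 to 632.8 FPKM in KO libraries and 582.8 to 613.3 FPKM in control libraries. Of the 7 tested, KRT5 was called higher in KO cells and EPCAM and PERP lower, while KRT14, a defining keratin of basal keratinocytes, was near 0 at 0.213 ± 0.0633 FPKM in KO and 0.260 ± 0.0608 FPKM in control (SD, n = 3). Of 8 fibroblast markers, a cell type that expresses many genes of this pathway, none reached the filter, and their sum was 0.447 to 0.562 FPKM in KO libraries and 0.448 to 0.535 FPKM in control libraries, with DCN at 0 throughout. Marker sums in KO and control libraries were 6.46 to 7.65 and 6.74 to 7.40 FPKM for melanocytes, 0.218 to 0.229 and 0.525 to 0.781 FPKM for leukocytes, and 1.88 to 2.01 and 2.07 to 3.03 FPKM for endothelium, with TYR and KDR at 0, and their part in the results was not tested.

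Of the 33 tested members, 7 rose in KO cells, 2 fell and 24 did not pass (limma on log2(FPKM + 1), Benjamini-Hochberg adjusted p under 0.05 over 11262 genes). The risers were PMEPA1, TGFBI, LTBP1, FSTL3, SKI, INHBA and LTBP2, and the fallers were GDF15 and TGFBR1. Among all tested genes 9.58% were called higher and 13.3% lower (22.9% in all), against 21.2% and 6.06% of the tested members. The members' median log2 fold change was 0.05, and that of all tested genes was -0.01. Scaled as TPM (each library divided by its FPKM sum), the members' split was 4 higher and 2 lower, and that of all genes was 671 higher and 1623 lower against 1079 and 1500 as deposited. With libraries weighted by their quality, 16 members were higher and 5 lower, beside 27.9% and 29.3% of all genes. Groups did not overlap for 17 members (51.5%), 12 with KO above control and 5 below, against 45.6% of all tested genes (20.4% above and 25.3% below). For each of these an exact two-sided permutation test gives p = 0.1, the smallest that 3 against 3 libraries allow.

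The calls were uneven between branches of the pathway, though no test of that difference was made. All 7 risers belong to the 18 tested members of the TGF-beta and activin branch, which also held 1 faller and had a median log2 fold change of 0.22 (22.9% of all tested genes were called in either direction). None of the 8 tested members of the BMP branch passed, beside the same 22.9% of all tested genes, and their median was 0.04. So few genes cannot tell a lack of calls from that share. Without control 3 the counts were 9 higher and 1 lower of 18 in the TGF-beta and activin branch and 2 higher (ID1 and ID3) and 1 lower (SMAD5) of 8 in the BMP branch, beside 18.8% and 21.4% of all genes. With array weights they were 11 higher and 1 lower, and 3 higher and 1 lower. As TPM the TGF-beta and activin branch had 4 higher and 1 lower, beside 671 and 1623 of 11266 genes. Without KO 1, KO 2 or KO 3 it had 4 higher each time, beside 386 to 521 of all genes. The BMP branch had no call in these fits. With each library corrected for transcript length and GC content, the first branch had 7 higher and 1 lower and a median of 0.10. The BMP branch then had 1 higher (BMPR2), beside 1341 and 1689 of 11177 genes. Of the members below the filter, BMP4 and SMAD6 of that branch and TGFBR3 of the TGF-beta branch were called in a fit without a filter and are described with their groups. Of the 7 members that serve both branches or neither, GDF15 fell and 6 did not pass, with a median of -0.10.

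**Figure D1:**
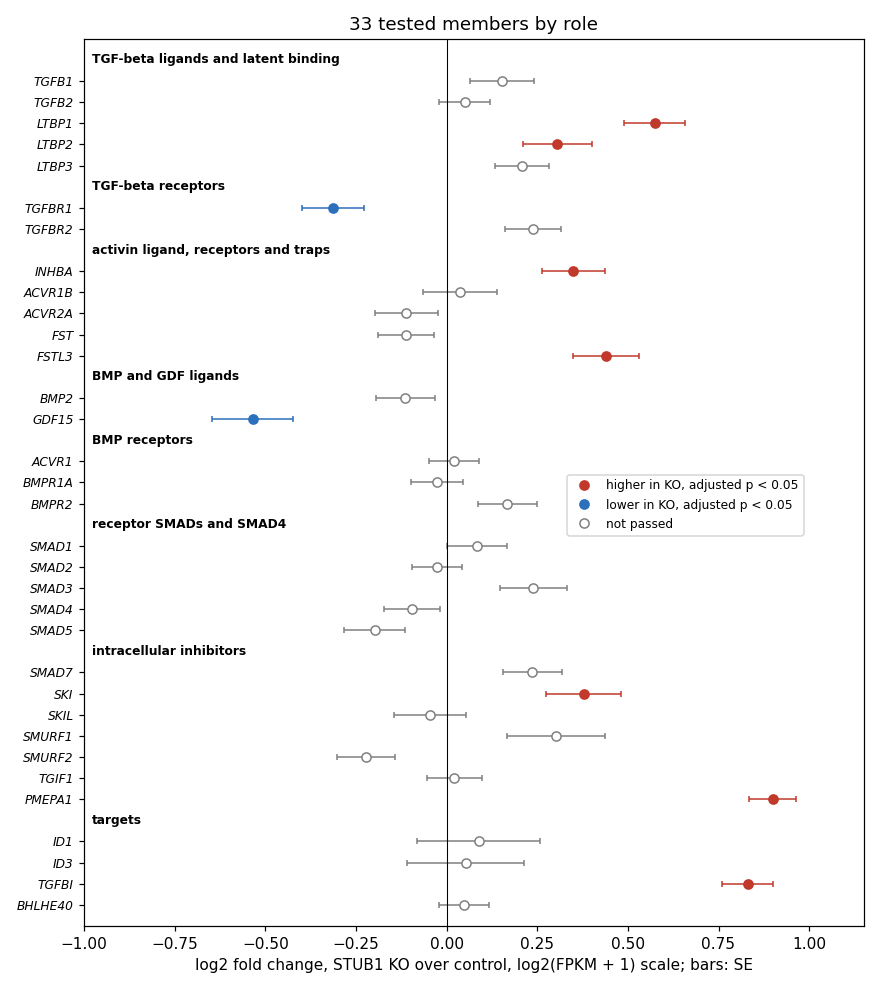
Log2 fold change of STUB1 KO over control (x axis, log2(FPKM + 1) scale) for the 33 tested members grouped by role, with bars for the SE and filled points for adjusted p under 0.05. PMEPA1 at 0.90 and TGFBI at 0.83 stand furthest to the right and GDF15 at -0.54 furthest to the left. The BMP receptors ACVR1 and BMPR1A lie near 0, and BMPR2 lies at 0.17.

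PMEPA1 and TGFBI, targets of TGF-beta signalling, had the largest log2 fold changes of the 33 tested members on the log2(FPKM + 1) scale. PMEPA1 encodes a membrane protein that holds SMAD2 and SMAD3 away from the receptor. It measured 25.1, 24.7 and 24.1 FPKM in KO libraries, against 12.7, 12.8 and 12.7 FPKM in control libraries. The 3 control values were nearly identical, control 3 included, and every KO value was far above them. Its mean was 1.93-fold that of control (log2 fold change 0.90, SE 0.06; limma, Benjamini-Hochberg adjusted p = 7.85e-05), the 25th smallest p of all tested genes. PMEPA1 shares 343 exonic bases, 6.1% of its own, with NKILA on the opposite strand, and the strand setting of the counting is not given in the sources used here.

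TGFBI, the secreted matrix protein named for its induction by TGF-beta, was the most abundant member. It measured 324.8, 315.3 and 319.4 FPKM in KO libraries, against 175.9, 184.9 and 177.6 FPKM in control libraries, again with no overlap and little spread in either group. The mean was 1.78-fold that of control (log2 fold change 0.83, SE 0.07; limma, Benjamini-Hochberg adjusted p = 0.000169). Both genes passed under all 15 processing alternatives, with log2 fold changes of 0.80 to 0.95 for PMEPA1 and 0.73 to 0.88 for TGFBI. The median log2 fold change of genes within 10 Mb was 0.04 around PMEPA1 (89 genes) and 0.02 around TGFBI (126 genes).

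The bases before the start sites of these genes are shown for PMEPA1 and TGFBI, described above, for SMAD6, whose window held the palindromic SMAD element GTCTAGAC, and for ID1, the most abundant BMP target. RefSeq (GRCh38.p14) gave a promoter for 36 of the 39 members (all but BMP2, BMP7 and SKI). Motifs were searched on both strands of the 250 bases before the start. The bases are printed as read on the gene's own strand, with matches in capitals. For 24 of these 36 the bases just after the start were found in a GENCODE transcript of the gene, and for the others they were not. GENCODE places the starts of PMEPA1 and TGFBI 64 and 93 bases further upstream than RefSeq, and for these the printed run ends before the GENCODE gene. The SMAD6 and ID1 windows reach 8 and 6 bases into it. Windows were not cut for the counts below, and those of the called members GDF15, INHBA and TGFBR1 lay wholly inside their GENCODE genes.
PMEPA1, chr20:57711537-57711722, minus strand: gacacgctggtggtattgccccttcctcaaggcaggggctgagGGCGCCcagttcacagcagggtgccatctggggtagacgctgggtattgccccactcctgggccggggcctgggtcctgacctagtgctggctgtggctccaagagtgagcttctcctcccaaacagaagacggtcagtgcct
TGFBI, chr5:136028738-136028894, plus strand: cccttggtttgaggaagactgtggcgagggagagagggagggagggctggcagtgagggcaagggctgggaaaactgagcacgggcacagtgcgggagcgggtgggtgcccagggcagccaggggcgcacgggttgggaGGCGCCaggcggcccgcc
SMAD6, chr15:66701986-66702235, plus strand: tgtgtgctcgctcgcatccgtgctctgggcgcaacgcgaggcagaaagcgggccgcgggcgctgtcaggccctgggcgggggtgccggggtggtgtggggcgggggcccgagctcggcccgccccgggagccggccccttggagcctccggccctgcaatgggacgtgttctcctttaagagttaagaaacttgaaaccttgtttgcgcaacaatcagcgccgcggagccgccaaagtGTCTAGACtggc
ID1, chr20:31605039-31605288, plus strand: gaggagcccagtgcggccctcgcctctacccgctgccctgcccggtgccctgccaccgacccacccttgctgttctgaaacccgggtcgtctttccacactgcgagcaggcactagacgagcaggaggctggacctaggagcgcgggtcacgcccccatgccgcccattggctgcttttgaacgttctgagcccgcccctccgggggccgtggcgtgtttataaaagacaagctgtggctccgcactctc
Both strands were searched for GGCGCC, a GC box of BMP-responsive promoters, for the CAGA box letters CAGACA, and for GTCTAGAC, and no printed matches overlap. GGCGCC stood in the windows of PMEPA1 and TGFBI, in 4 of 8 called members with a promoter, in 8 of the 28 other members, and in 16.1% of 27305 promoters. CAGACA was in 4 of 36 members (13.6% of all promoters) and GTCTAGAC was in 1 of 36, SMAD6 (0.176% of all promoters). These are matches of letters only.

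**Figure D2:**
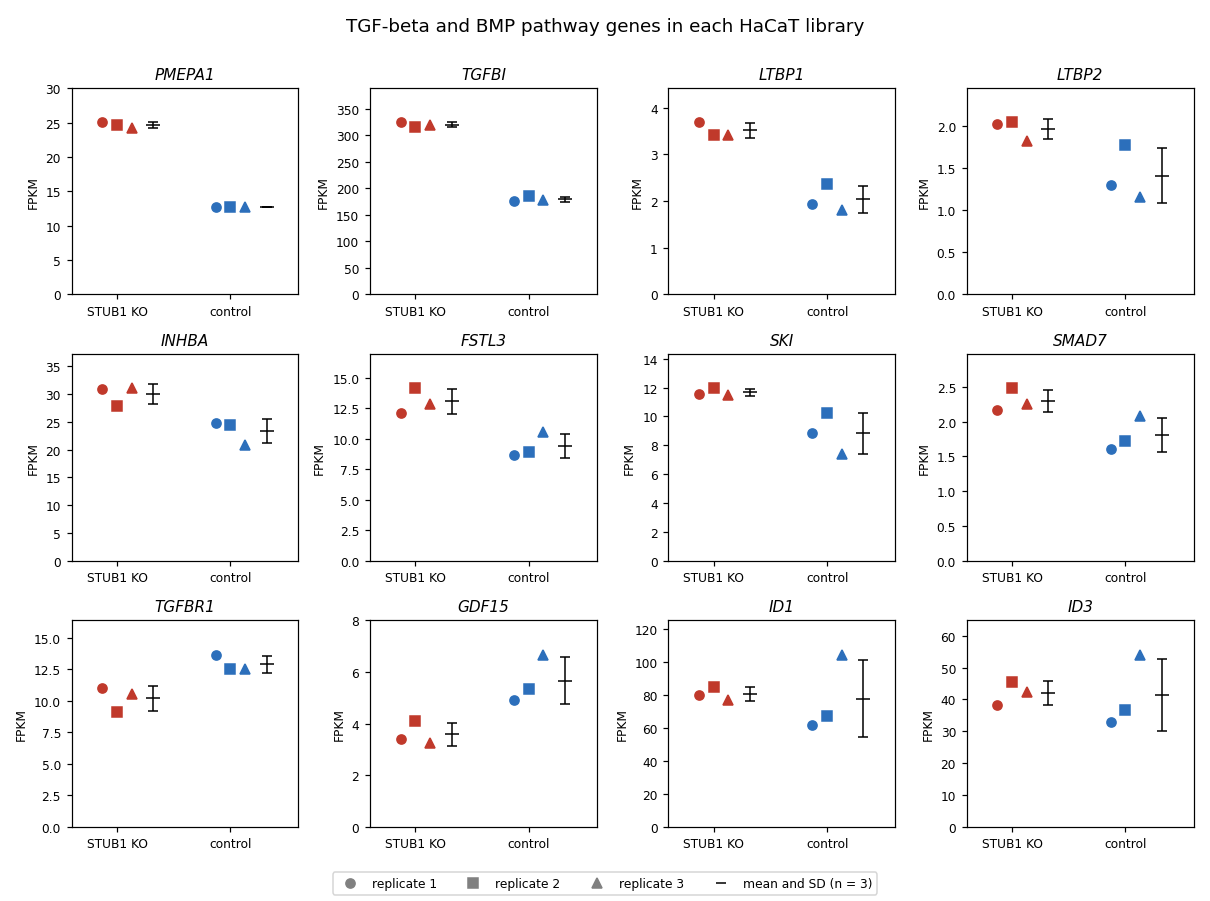
FPKM of 12 members in each library (y axes start at 0), STUB1 KO left of control, with marker shape for the replicate number and black bars for mean and SD of 3 libraries. PMEPA1 and TGFBI form tight groups that do not overlap, while control 3 (triangle) is the highest library for ID1 and ID3 at 104.6 and 54.1 FPKM.

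Ligands of the TGF-beta subgroup did not pass, while LTBP1, which stores them, and its relative LTBP2 did. TGFB1, the main ligand of keratinocytes in culture, measured 15.9, 19.6 and 17.3 FPKM in KO libraries, against 15.1, 16.4 and 15.6 FPKM in control libraries. These ranges overlapped (log2 fold change 0.15, limma adjusted p = 0.23). TGFB1 shares 215 exonic bases with HNRNPUL1 on the opposite strand. TGFB2 averaged 1.34 ± 0.104 FPKM in KO and 1.26 ± 0.131 FPKM in control (SD, n = 3), and 26.6% of its exonic bases are shared with TGFB2-OT1 on the same strand. TGFB2 did not pass (log2 fold change 0.05, adjusted p = 0.643) but did once each library was corrected for transcript length and GC content, below called the GC and length correction (0.22, limma adjusted p = 0.0327, and 0.0492 with the replicate block). TGFB3 was below the filter at 0.340 ± 0.00513 FPKM in KO and 0.356 ± 0.0455 FPKM in control (SD, n = 3).

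Latent TGF-beta binding proteins tether the inactive ligand to the matrix. LTBP1 rose to 3.69, 3.43 and 3.42 FPKM in KO libraries, against 1.93, 2.37 and 1.82 FPKM in control libraries. The mean was 1.72-fold that of control (log2 fold change 0.57, SE 0.08; limma, Benjamini-Hochberg adjusted p = 0.00196), and the call held under all 15 alternatives, with 0.52 without control 3 and 0.54 after the GC and length correction. LTBP2, which binds no ligand itself but resembles the others, measured 2.02, 2.05 and 1.83 FPKM in KO libraries, against 1.30, 1.78 and 1.16 FPKM in control libraries. It was past the threshold by little (log2 fold change 0.31, SE 0.10; limma adjusted p = 0.0482), lost the call under 10 of 15 alternatives, and stood at 0.08 after the GC and length correction (adjusted p = 0.377). Without KO 1, KO 2, KO 3 or control 1 its adjusted p was 0.131, 0.173, 0.09 and 0.127. LTBP3, the most abundant of the family at 21.7 ± 1.35 FPKM in KO and 18.6 ± 0.802 FPKM in control (SD, n = 3), did not pass (log2 fold change 0.21, adjusted p = 0.073). It passed without control 3 (0.20, limma adjusted p = 0.0293), and after the GC and length correction its value was -0.06 (adjusted p = 0.348).

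Of the 2 TGF-beta receptor kinases, the type I kinase fell in KO cells and the type II kinase did not pass. TGFBR1, the type I kinase, fell to 11.01, 9.09 and 10.5 FPKM in KO libraries, against 13.7, 12.5 and 12.5 FPKM in control libraries, 79.1% of the control mean (log2 fold change -0.31, SE 0.09; limma, Benjamini-Hochberg adjusted p = 0.0308). The groups did not overlap. Its call was lost without KO 2 (adjusted p = 0.103), KO 3 (0.087) or control 1 (0.106), without a filter (0.0506) and when libraries were scaled without mitochondrial transcripts (0.095). Mitochondrial transcripts made up 26.2% to 30.8% of FPKM in KO libraries and 20.9% to 26.8% in control libraries. Its log2 value was -0.18 after the GC and length correction (limma adjusted p = 0.0271, and 0.0513 with the replicate block). TGFBR2, the ligand-binding type II kinase, measured 18.4, 17.3 and 18.1 FPKM in KO libraries, against 15.9, 15.5 and 13.8 FPKM in control libraries. Every KO value was above every control value, but the gene did not pass (log2 fold change 0.24, SE 0.08; limma adjusted p = 0.0539). TGFBR2 passed without control 3 (0.18, limma adjusted p = 0.0319) and after the GC and length correction (0.27, adjusted p = 0.0102). TGFBR3, the co-receptor betaglycan, was below the filter at 0.0993 ± 0.0319 FPKM in KO and 0.229 ± 0.00702 FPKM in control (SD, n = 3), 43.3% of control. In the fit without a filter, which called 6.27% of 16782 genes higher and 9.0% lower, it was called lower (log2 fold change -0.16, limma adjusted p = 0.00687, and 0.0515 after the GC and length correction). Its neighbours within 10 Mb on chromosome 1 had a median of -0.16, with 16 of 73 lower.

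A ratio of 2 genes within a library does not depend on how libraries are scaled to one another, and 7 such ratios were formed after the single values were known. A ratio can still carry a trend on transcript length, as seen in control 3, where the 2 genes differ in length. No length-corrected ratio was formed. TGFBR1 over TGFBR2 was 0.598, 0.526 and 0.583 in KO libraries, against 0.861, 0.806 and 0.907 in control libraries. The KO values all lay below the control values, and the mean of 0.569 ± 0.0378 in KO was 0.663 times the 0.858 ± 0.0505 of control (SD, n = 3). Its exact two-sided permutation p was 0.1 (7 ratios compared, none able to reach a smaller value). Leaving out any 1 library kept the order of the group means, as it did for 6 of the 7 ratios. The exception was ID1 over ID3, whose groups overlapped at 1.92 ± 0.146 in KO and 1.87 ± 0.0570 in control (SD, n = 3).

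**Figure D3:**
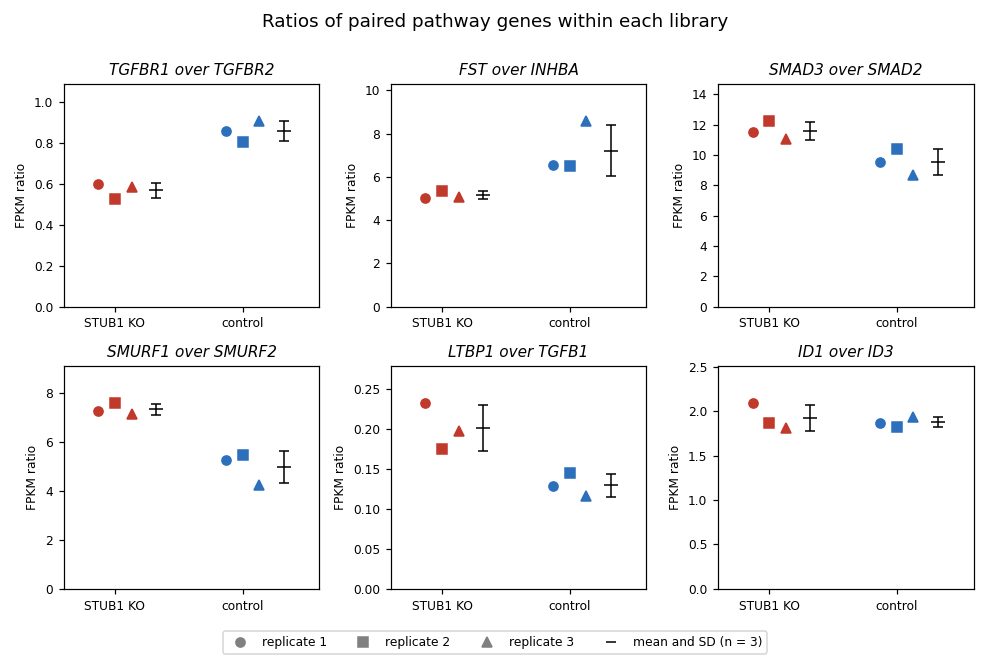
Ratio of FPKM values of gene pairs within each library (y axes start at 0), STUB1 KO left of control, with black bars for mean and SD of 3 libraries. TGFBR1 over TGFBR2 and FST over INHBA are lower in every KO library, SMURF1 over SMURF2 is higher in every KO library, and ID1 over ID3 overlaps.

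In the activin group the ligand chain INHBA and the trap FSTL3 rose. INHBA encodes the subunit of activin A, a keratinocyte growth and wound factor that signals through SMAD2 and SMAD3. It measured 30.9, 27.9 and 31.0 FPKM in KO libraries, against 24.8, 24.4 and 20.9 FPKM in control libraries, 1.28-fold higher on average (log2 fold change 0.35, SE 0.09; limma, Benjamini-Hochberg adjusted p = 0.0208). Its groups did not overlap, and the call was lost as TPM (adjusted p = 0.0551) and without KO 1 (0.0815) or KO 3 (0.0936). FSTL3, which binds and neutralizes activin, measured 12.1, 14.1 and 12.9 FPKM in KO libraries, against 8.67, 8.93 and 10.5 FPKM in control libraries, 1.39-fold higher (log2 fold change 0.44, SE 0.09; limma adjusted p = 0.0101). Only leaving out KO 2 among the 15 alternatives took its adjusted p past the threshold (0.0608). The median of FSTL3 neighbours on chromosome 19 was 0.13, with 25 of 204 higher and 4 lower.

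FST, the main activin antagonist and the more abundant trap by far, measured 155.3, 149.8 and 157.3 FPKM in KO libraries, against 162.3, 159.0 and 179.3 FPKM in control libraries. All KO values lay below the control values by a small margin, and the gene did not pass (log2 fold change -0.11, SE 0.08; limma adjusted p = 0.31). Per library, FST over INHBA was 5.02, 5.37 and 5.07 in KO, against 6.55, 6.53 and 8.58 in control, so the ratio of trap to ligand mRNA was lower in each KO library (exact permutation p = 0.1). FST and INHBA have 2969 and 8302 annotated exonic bases, and the part of the length trend of control 3 in its ratio was not tested. The activin type I receptor ACVR1B averaged 5.97 ± 0.266 FPKM in KO and 5.83 ± 0.877 FPKM in control (SD, n = 3). ACVR2A, a type II receptor for activins and BMPs, averaged 1.46 ± 0.158 FPKM in KO and 1.66 ± 0.247 FPKM in control, and neither receptor passed. The sign of the ACVR1B value was not stable, at 0.04 as deposited, -0.0007 when scaled as TPM and -0.07 with control 3 left out.

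Among BMP and GDF ligands, GDF15 fell. GDF15 is a stress-induced cytokine that signals through GFRAL rather than through SMAD receptors, and is induced by p53 and by the integrated stress response. It measured 3.39, 4.10 and 3.25 FPKM in KO libraries, against 4.93, 5.35 and 6.68 FPKM in control libraries, 63.3% of the control mean (log2 fold change -0.54, SE 0.11; limma, Benjamini-Hochberg adjusted p = 0.0101). No KO value reached any control value. The call held under all 15 alternatives, from -0.43 without control 3 to -0.64 at the other extreme, while its neighbours on chromosome 19 had a median of 0.12 with 18 of 214 higher and 1 lower.

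BMP2, the most abundant BMP ligand here, measured 7.63, 7.26 and 7.23 FPKM in KO libraries, against 7.72, 7.54 and 8.98 FPKM in control libraries. The ranges overlapped (log2 fold change -0.11, SE 0.08; limma adjusted p = 0.333). BMP4 was below the filter at 0.195, 0.253 and 0.205 FPKM in KO libraries, against 0.465, 0.400 and 0.534 FPKM in control libraries, 46.7% of control. Without a filter it was called lower (log2 fold change -0.27, limma adjusted p = 0.00706) under each of 13 alternatives, and the log2 value was -0.83 with a pseudocount of 0.1. The genes within 10 Mb of BMP4 on chromosome 14 had a median of -0.17, with 21 of 82 lower and 1 higher, and for neither BMP4 nor TGFBR3 was the part of the neighbourhood tested. BMP7 was listed at 0.010, 0 and 0 FPKM in KO libraries and at 0.010, 0.009 and 0.010 FPKM in control libraries, too little to compare.

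No BMP receptor passed, with only 3 tested, beside 22.9% of all tested genes. ACVR1, a type I receptor, averaged 5.47 ± 0.266 FPKM in KO and 5.37 ± 0.0535 FPKM in control (SD, n = 3). BMPR1A, the other type I receptor listed, averaged 4.24 ± 0.214 FPKM in KO and 4.33 ± 0.186 FPKM in control, and GENCODE names 2 pseudogenes of it that could take reads. BMPR2, the type II receptor, averaged 3.52 ± 0.276 FPKM in KO and 3.03 ± 0.281 FPKM in control (log2 fold change 0.17, limma adjusted p = 0.166). After the GC and length correction BMPR2 was at 0.29 and passed (limma adjusted p = 0.00394), and among the 3 receptors it was the only one to do so in any alternative run.

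None of the 5 signal-transducing SMADs passed, beside 22.9% of all tested genes, and so few genes cannot tell a lack of calls from that share. SMAD3, the TGF-beta and activin effector, was the most abundant at 35.1, 33.5 and 33.2 FPKM in KO libraries, against 29.6, 31.6 and 25.0 FPKM in control libraries. KO values lay above control values, with control 3 the lowest (log2 fold change 0.24, SE 0.09; limma adjusted p = 0.0896, and 0.0431 without control 2). SMAD3 did not pass without control 3, and its log2 value ranged from 0.09 to 0.31 over the 15 alternatives. SMAD2, its partner, averaged 2.93 ± 0.172 FPKM in KO and 3.002 ± 0.118 FPKM in control (SD, n = 3). FPKM is scaled to transcript length, and on that scale SMAD3 exceeded SMAD2 by 11.6 ± 0.596 times in KO libraries and 9.55 ± 0.844 times in control libraries. SMAD2 has 36366 annotated exonic bases, so this ratio depends on which length the authors divided by, although the order of the groups does not. Of the BMP effectors, SMAD1 averaged 8.89 ± 0.344 FPKM in KO and 8.35 ± 0.788 FPKM in control. SMAD5 averaged 8.44 ± 0.690 FPKM in KO and 9.83 ± 0.709 FPKM in control without overlap (log2 fold change -0.20, limma adjusted p = 0.119, and 0.0299 without control 3). SMAD4, the shared partner, averaged 7.19 ± 0.521 FPKM in KO and 7.75 ± 0.282 FPKM in control (adjusted p = 0.383).

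**Figure D4:**
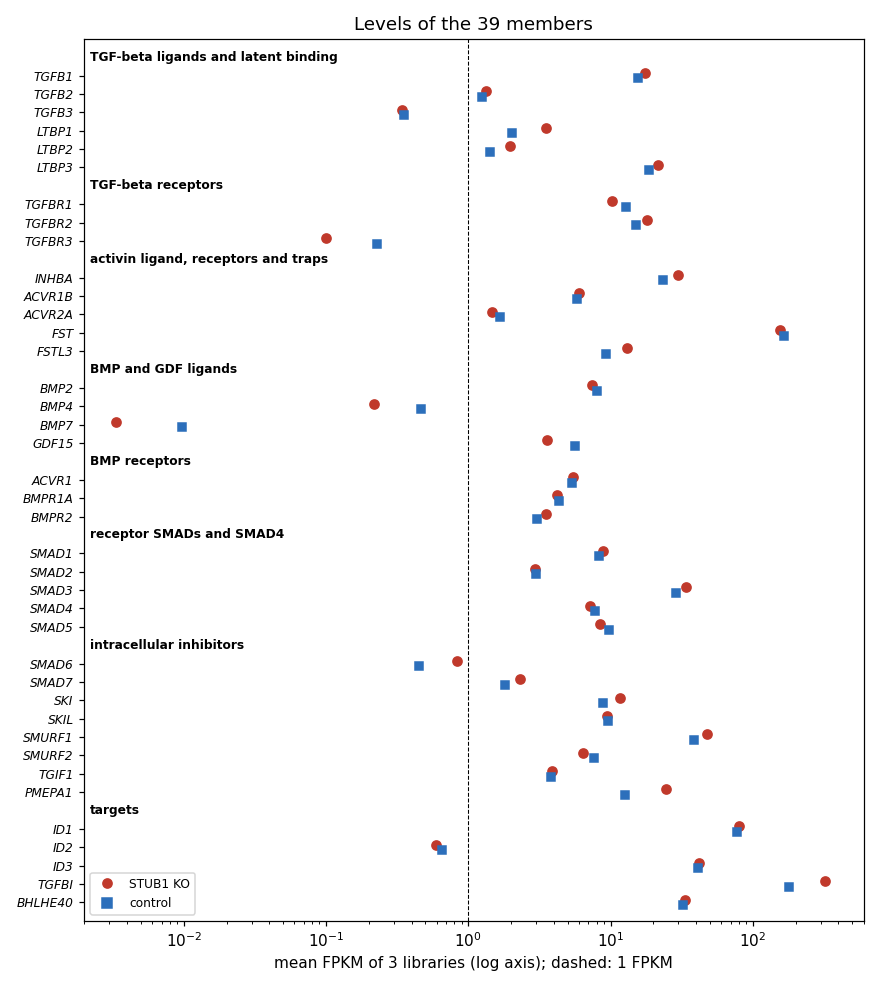
Mean FPKM of 3 libraries on a log axis for all 39 members by role, STUB1 KO (red circles) drawn above control (blue squares). Levels span from 0.00333 FPKM for BMP7 in KO to 319.8 FPKM for TGFBI in KO, and 6 members lie below a mean of 1 FPKM over the 6 libraries.

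Of 7 tested intracellular inhibitors, PMEPA1 and SKI rose and 5 did not pass. The share called was 28.6%, near the 22.9% of all tested genes called in either direction, so the count is no result about inhibitors. SKI, a repressor that binds SMAD complexes on DNA, measured 11.6, 11.9 and 11.5 FPKM in KO libraries, against 8.83, 10.2 and 7.41 FPKM in control libraries, 1.32-fold higher (log2 fold change 0.38, SE 0.10; limma, Benjamini-Hochberg adjusted p = 0.0296). KO libraries were tight and control libraries spread, with control 3 the lowest. The SKI call was lost under 9 of 15 alternatives. Among them were the GC and length correction (0.20, adjusted p = 0.0814) and leaving out KO 1 (0.084), KO 2 (0.122), KO 3 (0.086) or control 1 (0.0696). Its paralog SKIL, itself a TGF-beta target, measured 9.37 ± 1.32 FPKM in KO and 9.65 ± 0.289 FPKM in control (SD, n = 3) and did not pass (log2 fold change -0.05, adjusted p = 0.761).

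SMAD7, the receptor-blocking SMAD that TGF-beta induces, measured 2.17, 2.48 and 2.25 FPKM in KO libraries, against 1.61, 1.73 and 2.08 FPKM in control libraries. KO values lay above control values, with control 3 nearest to them (log2 fold change 0.24, SE 0.08; limma adjusted p = 0.065). It passed without control 3 (0.31, limma adjusted p = 0.00356) and when libraries were scaled without mitochondrial transcripts (0.27, adjusted p = 0.0439), and it stood at 0.12 after the GC and length correction (adjusted p = 0.343). SMAD6, the inhibitor of BMP signalling whose promoter is printed above, was below the filter at 0.900, 0.971 and 0.617 FPKM in KO libraries, against 0.462, 0.392 and 0.496 FPKM in control libraries. The groups did not overlap, and without a filter SMAD6 was called higher (log2 fold change 0.33, SE 0.08; limma adjusted p = 0.0342). That call was lost with the replicate block (0.0594), after the GC and length correction (0.147), and without KO 1 (0.102), KO 2 (0.107), control 1 (0.0919) or control 2 (0.0798).

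The ubiquitin ligases SMURF1 and SMURF2 degrade SMADs and receptors. SMURF1 measured 49.3, 47.1 and 45.5 FPKM in KO libraries, against 41.8, 44.9 and 29.7 FPKM in control libraries, with control 3 far below the rest (log2 fold change 0.30, SE 0.14; limma adjusted p = 0.136, and 0.0424 without control 2). Without control 3 its log2 value was 0.13, the lowest of the alternatives, and it did not pass. SMURF1 shares 735 exonic bases, 11.7% of its own, with TRRAP on the opposite strand. SMURF2 measured 6.77, 6.204 and 6.37 FPKM in KO libraries, against 7.90, 8.21 and 6.98 FPKM in control libraries, also without overlap (log2 fold change -0.22, SE 0.08; limma adjusted p = 0.0756, and 0.00468 without control 3). SMURF2 lies on a stretch of chromosome 17 where the median of 83 neighbours was -0.37, with 57 lower and 1 higher, and it has a pseudogene named in GENCODE. The part of that stretch in the SMURF2 value was not tested. TGIF1, a homeodomain repressor of SMAD targets, averaged 3.88 ± 0.167 FPKM in KO and 3.82 ± 0.315 FPKM in control (SD, n = 3).

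The ID genes, the classical targets of BMP signalling, depended on control 3. ID1 measured 79.8, 85.1 and 76.8 FPKM in KO libraries, against 61.6, 67.0 and 104.6 FPKM in control libraries. ID3 measured 38.2, 45.5 and 42.3 FPKM in KO libraries, against 32.97, 36.8 and 54.1 FPKM in control libraries. In both genes KO values were above controls 1 and 2 and below control 3. Neither passed (log2 fold change 0.09, SE 0.17, and 0.05, SE 0.16; limma adjusted p = 0.735 and 0.84). Without control 3 both were called higher, at 0.32 for ID1 (limma adjusted p = 0.000686) and 0.26 for ID3 (0.0102), in a fit that called 18.8% of genes higher and 21.4% lower. ID1 and ID3 have 1233 and 1797 annotated exonic bases, the fewest of the members, and control 3 was the library with the length trend given above. The part of that trend in their values was not tested. After the GC and length correction with all 6 libraries they stood at 0.05 (SE 0.12, adjusted p = 0.79) and 0.04 (SE 0.12, adjusted p = 0.847). ID2 was below the filter at 0.595 ± 0.115 FPKM in KO and 0.655 ± 0.0866 FPKM in control (SD, n = 3). BHLHE40, a transcription factor induced by TGF-beta and by many other signals, measured 33.2, 33.8 and 33.3 FPKM in KO libraries, against 30.6, 34.2 and 32.1 FPKM in control libraries, and did not pass (log2 fold change 0.05, SE 0.07; limma adjusted p = 0.647).

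**Figure D5:**
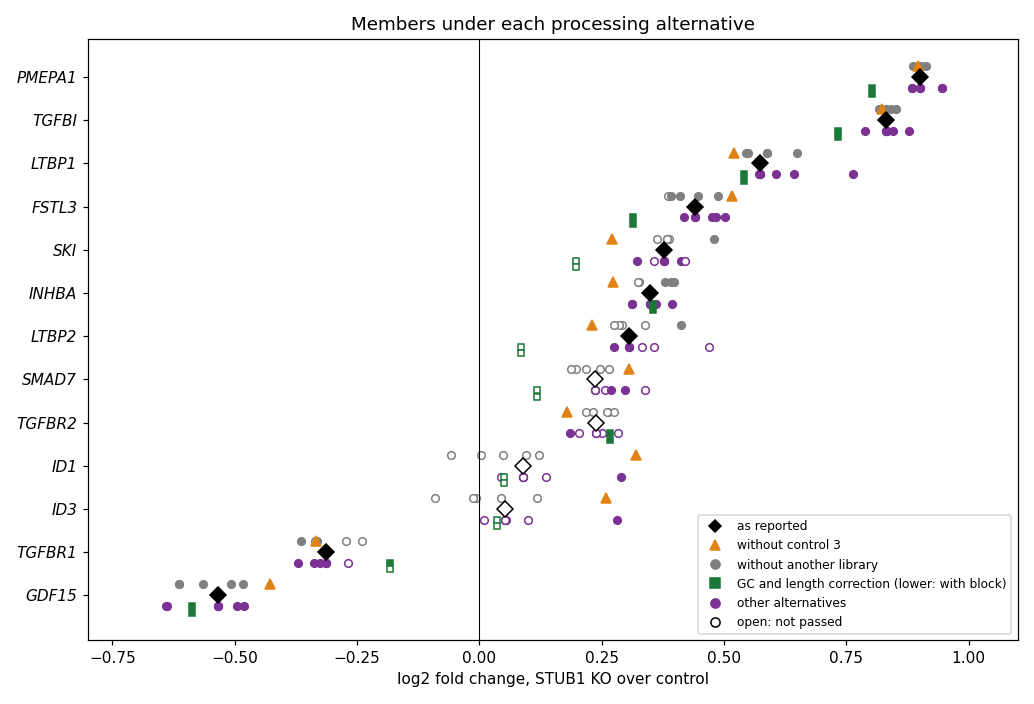
Log2 fold change of STUB1 KO over control (x axis) for 13 members as reported and under each processing alternative, filled where adjusted p was under 0.05. PMEPA1, TGFBI, LTBP1 and GDF15 stay filled throughout, while ID1 and ID3 move from 0.09 and 0.05 to 0.32 and 0.26 without control 3 (orange triangles).

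Other genes of the pathway were taken from a list of 97 that are no members, of which 59 were tested. Of these 14 rose, 6 fell and 39 did not pass (23.7% and 10.2%, beside the 9.58% and 13.3% of all tested genes), with a median log2 fold change of 0.05. Among 9 tested antagonists, latency proteins and activators, 4 rose and none fell at this threshold. They were LTBP4, a further latent binding protein (8.88 ± 0.891 FPKM in KO and 5.53 ± 0.466 FPKM in control), FURIN, the protease that cleaves TGF-beta precursors (25.3 ± 1.41 FPKM in KO and 16.5 ± 2.21 FPKM in control), BMP1, a procollagen protease, and THBS1, an activator of latent TGF-beta. Their log2 fold changes were 0.60, 0.59, 0.59 and 0.35 (limma adjusted p of 0.0024, 0.00385, 0.00709 and 0.0456). BMP1 lost its call without KO 2 (0.0569), and THBS1 without KO 1 (0.129), KO 2 (0.138), KO 3 (0.128) or control 1 (0.0598), as TPM (0.0851), without a filter (0.0852) and scaled without mitochondrial transcripts (0.0676). After the GC and length correction LTBP4 stood at 0.35 and BMP1 at 0.38, both still called (limma adjusted p = 0.00261 and 0.00778). Receptors and co-receptors had 1 call of 4: CD109, a co-receptor that limits TGF-beta signalling in keratinocytes, fell (-0.34, limma adjusted p = 0.0401), a call lost without any 1 of KO 1 to 3, control 1 or control 2 (0.0548 to 0.165), without a filter (0.075) and scaled without mitochondrial transcripts (0.126). The 34 tested genes within 10 Mb of CD109 had a median of -0.42, with 26 lower and 0 higher, and their part in its value was not tested. Of 13 intracellular regulators, STRAP, a WD40 protein that stabilizes SMAD7 at the receptor, fell to 73% of control (-0.45, limma adjusted p = 0.00753). It stood at -0.23 after the GC and length correction (adjusted p = 0.0107).

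Of 26 tested target genes of TGF-beta that are no members, 10 rose, 4 fell and 12 did not pass, with a median log2 fold change of 0.26. These shares, 38.5% higher and 15.4% lower, stood beside 9.58% and 13.3% of all tested genes. The list was chosen with earlier results of these data known. The 4 with the smallest p among risers were TGFB1I1, which encodes the focal adhesion protein HIC-5 (2.19-fold), FN1, fibronectin (3.45-fold), TNC, tenascin-C (3.08-fold), and CCN1, a matricellular protein (1.54-fold), with log2 fold changes of 0.95, 1.79, 1.49 and 0.62 (limma adjusted p of at most 0.000886). The fallers were PTHLH, CDKN2B, MYC and ANGPTL4, at 68.9%, 70.0%, 84.7% and 49.6% of control. The log2 fold change of ANGPTL4 was -0.85 as reported, -0.58 without control 3 and -0.37 with array weights, and it passed each time. In epithelial cells TGF-beta is known to raise PTHLH, the cell cycle inhibitor CDKN2B and the secreted protein ANGPTL4 and to lower MYC. CDKN2B lost its call without KO 2 (adjusted p = 0.051), ANGPTL4 without KO 1, KO 2 or KO 3 (0.0528 to 0.123) and without a filter (0.0941), and MYC without each library other than control 3 (0.0732 to 0.166) and when scaled without mitochondrial transcripts (0.084). The 39 tested genes within 10 Mb of MYC had a median of -0.35, with 24 lower and 1 higher, and their part in its value was not tested. None of the 3 tested BMP targets passed.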

How the data were processed

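Poly(A)-selected RNA from 6 HaCaT libraries was measured by RNA-seq. The authors deposited FPKM values for 20014 Ensembl genes. Per the submitters' processing notes the tools were Trimmomatic 0.36, HISAT2 2.0.5, featureCounts 1.6.3, edgeR 3.6.3 and Cufflinks, on GRCh38.p13, with no role stated; the sources used here give no annotation, strand setting or filter. FPKM is no count, so no count test was run. Steps in low values implied about 45700000 to 52700000 reads per library, but only 61.6% to 68.3% of low values lay within 0.15 of a whole read, so reads were not recovered and no counting interval was computed.

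Gene symbols were matched by Ensembl identifier (19991 genes) and GENCODE 29 (23 genes), which also gave positions, exonic length and GC content. Genes with a mean of at least 1 FPKM over the libraries (11262) were tested on log2(FPKM + 1), a scale that understates changes of low genes, with limma 3.58.1 in R 4.3.3 (genotype as sole term, intensity trend, two-sided, Benjamini-Hochberg adjustment at 0.05). Members under the filter were taken from the same fit without a filter (16782 genes). Every adjusted p is from limma, and FPKM means have n = 3 libraries per group. The test was run on simulated data with independent noise in each library. Of 100 genes with a true log2 change of 1 it recovered 92, and of 100 at 0.5 it recovered 64, with 5 false calls. The simulation held neither the length trend of control 3 nor any link between same-numbered libraries. Only these sets of 100 genes were changed, a far smaller share than the 22.9% called in the data, so the rates need not carry over. The GC and length correction removed from each library the smooth trend on both of its deviation from the gene mean. Single values used an exact two-sided permutation test. Figures were drawn with matplotlib 3.10.9, and tables were made in Python 3.11.15 with scipy 1.17.1, numpy 2.4.6 and pandas 2.3.3.

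Replicate numbers are shared between groups, and deviations of same-numbered libraries from their group means correlated at 0.375, 0.150 and 0.188, all over 0.1, so the fit with the replicate number as a block is given wherever it changes a call. No label states a shared day, and the reported values come from the fit without the block. Members and lists were chosen with earlier results of these data known. All members are named. From other pathway genes the text names up to 4 per list and direction with the smallest p among those that passed, and COL7A1, SNAI2, CCN2 and the genes below the filter were added after their values were seen.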

Additional observations from a re-analysis of the deposited data

How the results depend on the processing

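With the replicate block, 7 members were higher and 2 lower, as without it, and of all genes 1368 were higher and 1683 lower. The block changed 1 call of the members, SMAD6, and that of CCN2, both given beside their values, and no other call of a named gene. As TPM, 671 genes and 4 members were higher. With array weights, whose estimation did not fully converge, 3139 genes were higher and 3298 lower, with 16 and 5 members and 25 and 15 other pathway genes. The count of lower members was 1 when scaled without mitochondrial genes and 1 with the GC and length correction and replicate block. Leaving out 1 library gave 386 genes higher without KO 2 to 2117 without control 3, and 648 to 2410 lower with the same libraries left out. Higher members ranged from 4 to 12 and lower members from 1 to 4, and other pathway genes from 9 to 18 higher and 2 to 7 lower. Of the single-gene values under an alternative, 827 kept direction and side of the threshold, 67 lost the call, 34 gained it and 34 changed sign. Sign changes touched no member that passed as reported. With the GC and length correction, with or without the replicate block, log2 fold changes were -0.059 for LTBP3, -0.065 for ACVR1B, 0.021 for ACVR2A, 0.023 for BMPR1A, 0.11 for SKIL and -0.044 for TGIF1. As TPM they were -0.0007 for ACVR1B, -0.018 for ACVR1 and -0.0155 for TGIF1. With array weights they were -0.0901 for ACVR1B, -0.0049 for ACVR1, 0.016 for SKIL, -0.071 for TGIF1 and 0.013 for ID2. Scaled without mitochondrial genes they were 0.012 for BMPR1A and 0.0083 for SMAD2. Leaving out 1 library gave -0.075 to 0.095 for ACVR1B, -0.013 to 0.041 for ACVR1, -0.056 to 0.0023 for BMPR1A, -0.051 to 0.0098 for SMAD2, -0.11 to 0.064 for SKIL, -0.021 to 0.072 for TGIF1, -0.058 to 0.32 for ID1, -0.10 to 0.0033 for ID2, -0.0899 to 0.26 for ID3 and -0.025 to 0.079 for ID1 over ID3 (log2 of the mean ratio, KO over control). The causes were not tested. The number of reads behind each FPKM is unknown, and values under 1 FPKM rest on few reads.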

Other observations

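Several pathway genes that are no members lay below a mean of 1 FPKM and differed in the fit without a filter, in which 15.3% of genes passed. They were chosen after their values were seen, and at such levels a few reads decide a value. Of the ligands, INHBE, a further activin subunit induced by stress in liver, measured 1.13, 1.02 and 0.913 FPKM in KO libraries, against 0.368, 0.358 and 0.395 FPKM in control libraries, 2.74-fold higher (limma adjusted p = 0.00143). INHA, the inhibin alpha subunit, averaged 0.592 ± 0.113 FPKM in KO and 0.185 ± 0.0510 FPKM in control, and BMP3, a BMP that opposes the others, averaged 0.372 ± 0.0818 FPKM in KO and 0.122 ± 0.0143 FPKM in control (SD, n = 3; limma adjusted p = 0.00654 and 0.00844). These 3 calls held under each of 13 alternatives.

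BAMBI, a decoy receptor without a kinase domain, measured 0.324, 0.275 and 0.392 FPKM in KO libraries, against 0.712, 0.941 and 1.23 FPKM in control libraries, 34.4% of control (limma adjusted p = 0.0127, and 0.0615 without KO 2). NOG, which encodes the BMP antagonist noggin, averaged 0.524 ± 0.0946 FPKM in KO and 0.287 ± 0.0497 FPKM in control (SD, n = 3; limma adjusted p = 0.0248), a call lost without KO 2, control 1 or control 2 (highest adjusted p 0.0809). Of 7 listed TGF-beta targets below the filter, COL1A1, SNAI1, ZEB1 and MMP9 did not pass. VIM, vimentin, was higher in KO at 0.530 ± 0.0178 FPKM, against 0.249 ± 0.0492 FPKM in control (SD, n = 3; limma adjusted p = 0.00354). The matrix proteases MMP13 and MMP2 were lower in KO, at 27% and 51.4% of control (limma adjusted p = 0.00267 and 0.00406, each held under 13 alternatives). In the tested range the collagen VII gene COL7A1 averaged 37.4 ± 0.921 FPKM in KO and 22.1 ± 3.05 FPKM in control, and the transcription factor SNAI2 averaged 61.1 ± 2.18 FPKM in KO and 44.8 ± 1.08 FPKM in control (SD, n = 3; limma adjusted p = 0.00125 and 0.00246). The log2 fold change of COL7A1 was 0.74, and 0.47 after the GC and length correction (adjusted p = 0.00153). CCN2, a target often read beside CCN1, did not pass at 65.1% of control (limma adjusted p = 0.0655) and was called lower under 5 of 15 alternatives, among them the replicate block (0.0265). The 43 tested genes within 10 Mb of CCN2 had a median log2 fold change of -0.57, with 36 lower and 0 higher, and their part in its value was not tested.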
